A study of Mus musculus with 20 samples.

Results

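The 10 genes described here encode parts of the killing machinery of cytotoxic lymphocytes: the granule genes Nkg7, Gzma, Gzmb, Gzmk and Prf1, the death ligand gene Fasl, and the natural killer (NK) receptor genes Klrd1, Klre1, Klrg1 and Klrb1c. They were 10 of 39179 gene IDs counted in each of 20 libraries of mouse CD4 T cell mRNA. Each was found by its symbol in the GRCm38 annotation, and each was counted in every library's table. The genes were picked because of their levels in colon libraries, by genotype and against the cells before transfer. Their values in those comparisons are therefore given as a description, without a test. Comparisons of genotypes before transfer and of cultured or naive cells did not choose them and were tested.

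The study asked what becomes of Th17 cells, which secrete IL-17, once they lack Il6ra, which encodes the alpha chain that binds IL-6. All mice were C57BL/6, and all T cells carried the IL-17F/Thy1.1 reporter, which puts Thy1.1 on cells that express Il17f. Colon libraries (3 Il6ra-/- and 3 wild type) came from Rag1-/- hosts, which lack lymphocytes with rearranged receptors but keep NK cells and other innate lymphocytes. Each host had received 200000 Il6ra-/- cells carrying CD45.2 and 200000 wild-type cells carrying CD45.1, and 4 weeks later live CD4+ TCRb+ cells were sorted from the colon by CD45 allele. The CD45 allele of the hosts is not given in the labels used here, and whether host cells entered either gate was not tested. The CD45 allele thus differed with Il6ra, so the gene and the allele cannot be told apart in these libraries. The colon libraries were pools per the labels, and colon cells were not gated on the reporter. The libraries before transfer (2 Il6ra-/- and 2 wild type) were Thy1.1+ cells of the same genotypes after 6 days in 2.5 ng/ml TGF-beta and 20 ng/ml hyper-IL-6, with anti-CD3, antibodies to IFN-gamma and IL-4, and irradiated spleen cells. Hyper-IL-6 joins IL-6 to the soluble form of its receptor in 1 protein and acts on cells without a receptor of their own. A separate culture part, with the reporter allele marked Hz in the labels of all groups, held Il6ra-/- cells in hyper-IL-6, wild-type cells in hyper-IL-6, wild-type cells in IL-6, Il6ra-/- naive CD4 T cells and wild-type naive CD4 T cells (2 libraries each). Its cultures lasted 6 days in 2.5 ng/ml TGF-beta with either 63 ng/ml hyper-IL-6 or 20 ng/ml IL-6, and the labels give 4 h of PMA and ionomycin for all 10 of its libraries, naive ones included.

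Cytotoxic T cells and NK cells kill by releasing granules toward a target. Perforin, the product of Prf1, opens the target membrane, granzymes enter and cleave proteins that bring on cell death, and Nkg7 is a granule membrane protein needed for efficient granule release. Fas ligand kills by another route, through the death receptor Fas. The lectin-like NK receptors pass inhibitory or activating signals. Some CD4 T cells of inflamed gut carry such genes as well.

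The members lie on 6 chromosomes of GRCm38. All 4 receptor genes are on chromosome 6, with Klrb1c (chr6:128778485-128789215), Klre1 (chr6:129577905-129585827) and Klrd1 (chr6:129591782-129598775) in the NK gene complex and Klrg1 (chr6:122270596-122282882) outside it. Gzma (chr13:113093825-113100981) and Gzmk (chr13:113171608-113225908) are near each other on chromosome 13, and Gzmb (chr14:56258838-56262260) is in another granzyme cluster on chromosome 14. Nkg7 is at chr7:43437073-43438249, Prf1 at chr10:61297833-61304680 and Fasl at chr1:161780689-161788495.

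Promoter windows of RefSeq (GRCm38.p6, 250 bases before to 50 bases after the annotated start) were at hand for 8 of the 10 members, in 9 windows of 300 bases. Windows of Nkg7, Gzmb and Prf1 are shown because these granule genes stood higher in Il6ra-/- than in wild-type colon cells while their windows carried different sets of the motifs searched. Capitals mark matches, on either strand, to the letters AGGTGTGA (T-box), TGTGGT (RUNX), TGANTCA (AP-1) and TTCNNNGAA (STAT), where N is any base.

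Nkg7, chr7:43436888-43437187, plus strand: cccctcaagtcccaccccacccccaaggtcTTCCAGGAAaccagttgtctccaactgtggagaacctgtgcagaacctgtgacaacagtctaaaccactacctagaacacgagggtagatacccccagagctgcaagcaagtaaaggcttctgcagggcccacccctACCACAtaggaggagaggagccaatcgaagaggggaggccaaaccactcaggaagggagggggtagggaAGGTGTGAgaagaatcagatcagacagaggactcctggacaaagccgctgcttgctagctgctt

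Gzmb, chr14:56262285-56262584, minus strand: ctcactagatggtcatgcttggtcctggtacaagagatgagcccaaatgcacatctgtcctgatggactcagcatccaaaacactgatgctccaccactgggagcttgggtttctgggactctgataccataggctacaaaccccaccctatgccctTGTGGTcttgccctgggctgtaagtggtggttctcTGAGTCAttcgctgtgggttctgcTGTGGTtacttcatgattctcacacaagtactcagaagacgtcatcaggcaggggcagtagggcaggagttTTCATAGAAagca

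Prf1, chr10:61297586-61297885, plus strand: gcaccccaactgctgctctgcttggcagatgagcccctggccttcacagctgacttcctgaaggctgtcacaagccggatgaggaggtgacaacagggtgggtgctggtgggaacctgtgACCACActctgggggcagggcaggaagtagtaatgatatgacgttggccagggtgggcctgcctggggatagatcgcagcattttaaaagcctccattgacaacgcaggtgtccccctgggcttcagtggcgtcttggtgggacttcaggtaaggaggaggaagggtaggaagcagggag

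The T-box letters stood in the Nkg7 window alone among the 8 members, with the first base at position -14 where the start itself is position 1. They occurred in 1.28% of 32851 RefSeq windows. The RUNX letters occurred in windows of 6 members (Nkg7, Gzma, Gzmb, Prf1, Klre1 and Klrb1c) and in 16.8% of all windows. In the Gzmb window they occurred 2 times, at positions -93 and -34, on either side of an AP-1 match at position -58. AP-1 letters were found in Gzmb alone (7.81% of all windows) and STAT letters in Nkg7 and Gzmb (8.3% of all windows). No matches overlapped one another, and the Fasl window held none of these letters. The RefSeq start of Gzmb lies upstream of the gene as annotated above, and that of Gzmk lies inside the gene's annotated span. Neither of these windows matched an annotated transcript, so they may not be the promoters in use, and nothing is read from the lack of these letters in the Gzmk window. RefSeq starts of Nkg7, Klre1 and Klrb1c also lie inside the annotated spans. The T-box match of Nkg7 and the RUNX matches of Klre1 and Klrb1c therefore fall within the annotated genes. A match describes the letters in the windows and no binding was measured.

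Levels are TMM-normalised CPM, the usual scale of gene counts relative to library size, with library sizes adjusted by edgeR's trimmed-mean factor. The transfer and culture parts were scaled separately. Gene counts summed to between 12718633 and 23745060 per library in the transfer part and to between 20160774 and 46848016 in the culture part, so that 3 counts, the floor used here, stood for between 0.0631 and 0.247 CPM. Log2 fold changes are given with their standard error (SE) and means with the standard deviation (SD) over libraries. A colon or transfer library is named by its number in the labels, 0 to 2, and a gene passed a test with an edgeR quasi-likelihood p, adjusted by Benjamini-Hochberg over all genes of the fit, under 0.05. Colon libraries were pools, and no label ties the other libraries to single animals. The p-values therefore measure the spread between libraries, which may be technical. In bulk samples, fewer cells of a type and less RNA per cell cannot be told apart.

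In the colon, most of these transcripts were more abundant in Il6ra-/- than in wild-type libraries. Of the 10 members, 7 had every Il6ra-/- library above every wild-type library, 0 had the reverse and 3 overlapped. Over all 14225 genes tested, 8.6% lay wholly higher and 7.17% wholly lower. Since this comparison chose the members, nothing is read from the count. The median log2 fold change was 1.03 over the members and 0.00 over all genes. Summed over the 10 members, the level was 1137, 1038 and 1482 CPM in the Il6ra-/- libraries, against 430.0, 603 and 716 CPM in the wild-type libraries.

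**Figure D1:**
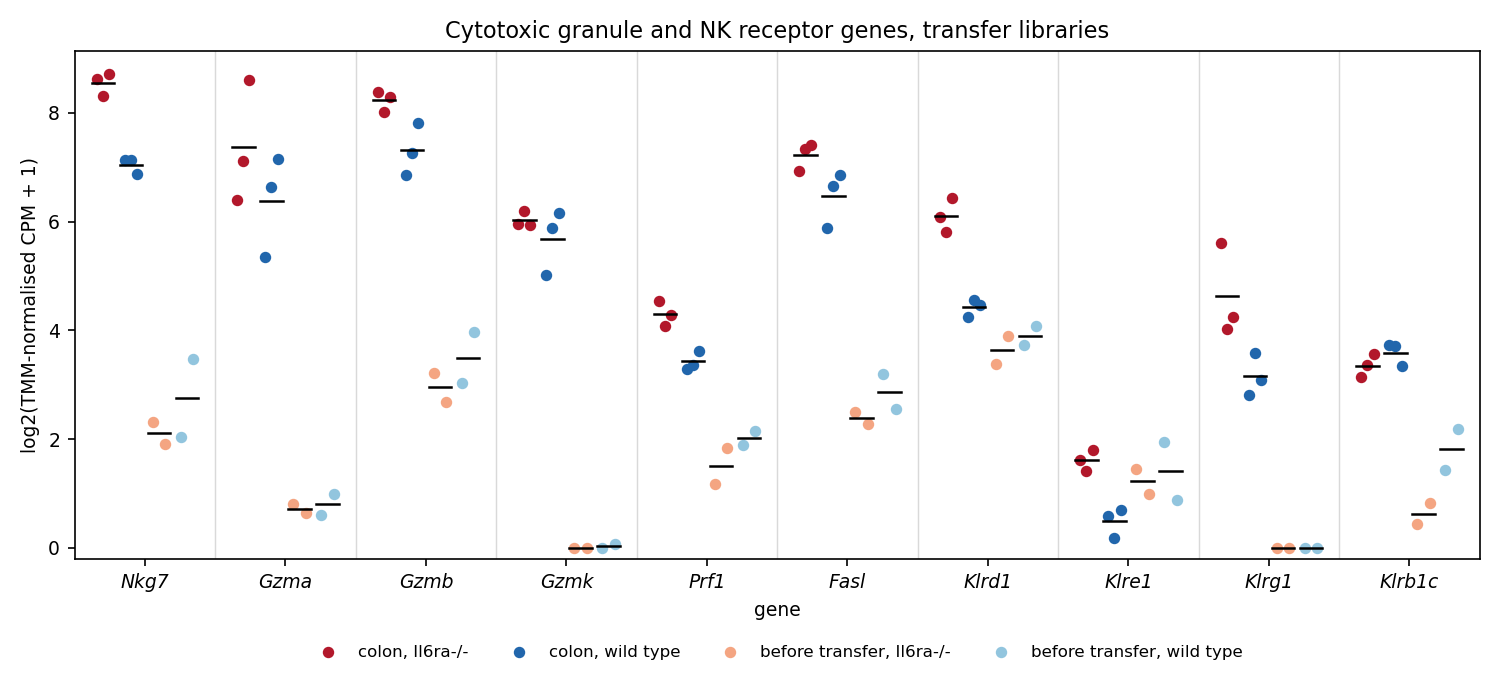
Level of each member as log2(TMM-normalised CPM + 1) in the 10 transfer libraries, with 1 point per library and a bar at the group mean of these log2 values. In the colon, Nkg7 and Klrd1 show the clearest gap between Il6ra-/- and wild type, and before transfer Gzmk and Klrg1 sit at or next to 0 in all 4 libraries.

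In Il6ra-/- colon cells Nkg7 had the highest mean CPM of the members. It stood at 392, 315 and 417 CPM in Il6ra-/- libraries 0, 1 and 2, against 140.2, 139 and 117 CPM in the wild-type libraries. The means were 375 ± 52.9 CPM in Il6ra-/- and 132 ± 13.2 CPM in wild type (SD, n = 3 each). The log2 fold change was 1.51 ± 0.34. Before transfer Nkg7 was low, at 3.96 and 2.78 CPM in Il6ra-/- and 3.10 and 10.2 CPM in wild type. Relative to the cells before transfer, colon cells were 6.79 ± 0.52 log2 units higher in Il6ra-/- and 4.32 ± 0.46 log2 units higher in wild type.

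Gzmb encodes the granzyme that cleaves after aspartate and activates caspases. Its levels were 333, 257 and 313 CPM in Il6ra-/- colon cells and 115, 152 and 224 CPM in wild-type colon cells. No wild-type library reached the lowest Il6ra-/- one, and the log2 fold change was 0.88 ± 0.31. Before transfer Gzmb was at 8.31 and 5.43 CPM in Il6ra-/- and 7.14 and 14.7 CPM in wild type, the highest of the granzymes at that stage.

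Gzma encodes a granzyme with tryptase activity. It varied widely between libraries, with 83.6, 137 and 387 CPM in Il6ra-/- colon libraries and 39.9, 98.7 and 141 CPM in wild-type ones. The groups overlapped, although each Il6ra-/- library exceeded the wild-type library of its own number. Both genotypes were lowest in library 0 and highest in library 2. The log2 fold change was 1.12 ± 0.55, and it was 0.24 with Il6ra-/- library 2 left out, the lowest value among the fits that left out 1 library. Before transfer Gzma was at 0.738 and 0.555 CPM in Il6ra-/- and 0.517 and 0.991 CPM in wild type.

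Gzmk, another granzyme of the tryptase kind, overlapped between the genotypes. In the colon it was at 61, 71.9 and 60.2 CPM in Il6ra-/- and 31.2, 57.7 and 70.5 CPM in wild type, and the log2 fold change was 0.28 ± 0.29. It was the member with the plainest contrast to the cells before transfer, where Il6ra-/- libraries had 0 counts and the wild-type libraries 0 and 1 count. In Il6ra-/- cells this made the colon level at least 526-fold higher than before transfer, taking 3 counts per library as the floor.

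In the mix of the 3 granzymes, per kilobase of exon, the shares of Gzma and Gzmb overlapped between the genotypes in the colon and that of Gzmk did not. Gzma made up 23.2%, 37.1% and 59.5% of their summed level in Il6ra-/- colon libraries, against 27.8%, 40.0% and 40.4% in wild-type ones. Gzmb made up 64.6%, 48.8% and 33.7% in Il6ra-/- and 56.4%, 43.1% and 44.9% in wild type. Gzmk made up 12.2%, 14.1% and 6.71% in Il6ra-/- and 15.8%, 16.9% and 14.6% in wild type, so that each Il6ra-/- library lay below each wild-type one. This share depends on Gzma and Gzmb, which were picked by their colon levels, and the CPM of Gzmk overlapped. Nothing is therefore read from the order of the shares. Before transfer the mix was nearly all Gzmb, at 88.8% and 87.3% in Il6ra-/- and 90.6% and 90.9% in wild type.

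**Figure D2:**
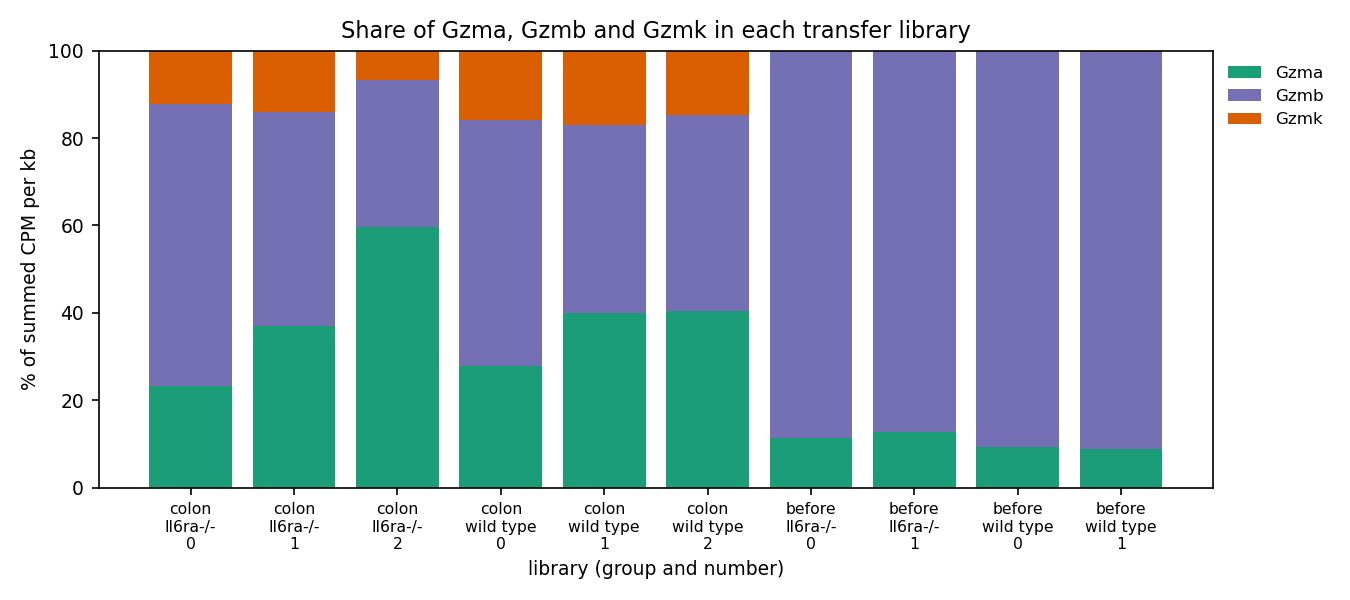
Share of Gzma, Gzmb and Gzmk in their summed CPM per kilobase of exon (y axis, %) in each transfer library (x axis). The Gzma share reached 59.5% in Il6ra-/- colon library 2 and at most 12.7% in any library before transfer.

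Prf1 was the least abundant granule member in the colon for its length, at 7.33 ± 1.25 CPM per kilobase in Il6ra-/- and 3.80 ± 0.52 CPM per kilobase in wild type (SD, n = 3 each). Per library it was at 22.4, 16 and 18.5 CPM in Il6ra-/- and 8.79, 9.35 and 11.3 CPM in wild type. The lowest Il6ra-/- library lay above the highest wild-type one, and the log2 fold change was 0.95 ± 0.30. Before transfer the order of the genotypes was the opposite, with 1.24 and 2.56 CPM in Il6ra-/- and 2.72 and 3.42 CPM in wild type.

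Fasl encodes Fas ligand. It lies 23.6 Mb from Ptprc, the gene of CD45, and the transfer genotypes carried different CD45 alleles. Colon levels were 121, 159.6 and 169.7 CPM in Il6ra-/- and 58.0, 100.2 and 114 CPM in wild type. The groups did not overlap, by a margin of a few CPM, and the log2 fold change was 0.72 ± 0.27. Both genotypes were lowest in library 0. Before transfer Fasl was at 4.66 and 3.84 CPM in Il6ra-/- and 8.12 and 4.86 CPM in wild type, so that the order was again the opposite of that in the colon.

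Among the receptors, Klrd1 encodes CD94, the partner chain of the NKG2 receptors. It was at 66.7, 55.3 and 85.3 CPM in Il6ra-/- colon cells and 17.9, 22.7 and 21.2 CPM in wild-type colon cells. The wild-type libraries lay within a few CPM of one another and far below every Il6ra-/- library, and the log2 fold change was 1.74 ± 0.24. Klrd1 was already present before transfer, at 9.40 and 14 CPM in Il6ra-/- and 12.3 and 15.8 CPM in wild type. Colon cells thus exceeded the cells before transfer by 2.56 ± 0.28 log2 units in Il6ra-/- and by 0.55 ± 0.26 in wild type.

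Klrg1 encodes an inhibitory receptor for cadherins that marks late effector cells. No count was found in any of the 4 libraries before transfer. In the colon it was at 47.6, 15.3 and 17.9 CPM in Il6ra-/- and 5.98, 11.0 and 7.47 CPM in wild type. Every Il6ra-/- library was higher, but library 0 of that genotype stood far above the other two, and the ratio to the wild-type library of the same number was 7.97, 1.39 and 2.39 in pairs 0, 1 and 2. The log2 fold change was 1.72 ± 0.47, and 1.02 with Il6ra-/- library 0 left out. Against the floor of 3 counts, colon levels were at least 220.1-fold higher than before transfer in Il6ra-/- cells and at least 56.4-fold higher in wild-type cells.

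Klre1, a receptor that pairs with the Klri chains in rodents, was the rarest member. Its colon counts were 36, 20 and 36 in Il6ra-/- and 7, 3 and 9 in wild type, or 2.08, 1.65 and 2.46 CPM against 0.492, 0.134 and 0.623 CPM. The groups did not overlap, and the log2 fold change of 2.34 ± 0.68 was 1.88 with wild-type library 1, the one with 3 counts, left out. It was the sole member that was lower in the wild-type colon than before transfer, where it had 1.75 and 0.983 CPM in Il6ra-/- and 2.86 and 0.843 CPM in wild type. In Il6ra-/- cells, colon and earlier libraries overlapped.

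Klrb1c encodes the NK1.1 antigen of C57BL/6 mice. In contrast to the other receptors it was not higher in Il6ra-/- colon cells, with 7.80, 9.22 and 10.8 CPM, against 12.2, 12.1 and 9.13 CPM in wild-type colon cells. The groups overlapped, and the log2 fold change was -0.27 ± 0.36. Among the 4 receptors, per kilobase, Klrb1c made up 4.25% ± 1.23 of the summed level in Il6ra-/- and 14.8% ± 3.18 in wild type (SD, n = 3 each).

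Library 0 of each genotype came from one experiment and libraries 1 and 2 from another, so the ratios were also read within experiments. In the first experiment, with 1 library per genotype, the ratio of Il6ra-/- over wild type was 2.79 for Nkg7, 2.10 for Gzma, 2.89 for Gzmb, 2.54 for Prf1, 2.09 for Fasl, 3.72 for Klrd1 and 4.23 for Klre1. In libraries 1 and 2 of the second experiment it was 2.27 and 3.57 for Nkg7, 1.39 and 2.75 for Gzma, 1.69 and 1.40 for Gzmb, 1.71 and 1.63 for Prf1, 1.59 and 1.48 for Fasl, 2.44 and 4.01 for Klrd1 and 12.3 and 3.96 for Klre1. Klrg1 was also higher in Il6ra-/- in every pair, as given above. The ratio was 0.854 for Gzmk in pair 2, and 0.638 and 0.765 for Klrb1c in pairs 0 and 1. The pairing of libraries 1 and 2 by number is assumed. Since this comparison chose the members, nothing is read from the direction of these ratios.

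**Figure D3:**
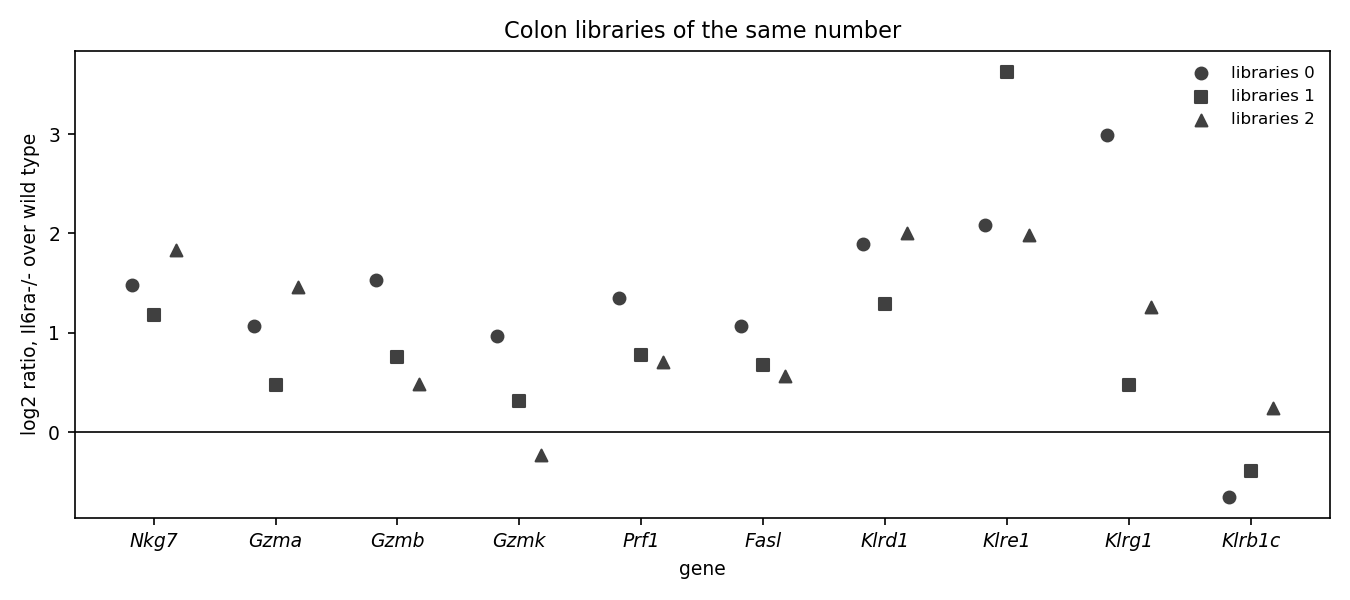
Log2 ratio of Il6ra-/- over wild-type CPM (y axis) for each member in the 3 pairs of colon libraries that share a number. Gzmk falls to -0.23 in pair 2 and Klrb1c lies at -0.65 and -0.39 in pairs 0 and 1, while the other ratios lie above 0.

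Taken by exon length, the order of the members in the colon was nearly the same in both genotypes. Nkg7 led with 410.0 ± 57.8 CPM per kilobase in Il6ra-/- and 144 ± 14.5 in wild type, followed by Gzmb, Gzma and Fasl. The mean of Gzma, 201 ± 161 CPM per kilobase in Il6ra-/- and 92.6 ± 50.5 in wild type, did not differ from that of Gzmb, 209.7 ± 27.4 and 114 ± 38.4, beyond the spread. Klrd1 stood above Gzmk in Il6ra-/- (53.9 ± 11.8 against 46.3 ± 4.69 CPM per kilobase) and below it in wild type (16.1 ± 1.91 against 38.3 ± 14.4). The lower end was formed by Klrg1, Prf1, Klrb1c and Klre1 in both genotypes, with Prf1 and Klrb1c at like levels in wild type.

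Against the cells before transfer, 9 members lay wholly higher in Il6ra-/- colon cells and 1, Klre1, overlapped, where 31.3% of all genes lay wholly higher. In wild-type cells 9 members lay wholly higher and 1, again Klre1, wholly lower, where 28.4% and 26.6% of all genes did so. These comparisons also chose the members. The summed level of the 10 members was 30.4 and 30.9 CPM in Il6ra-/- and 38.5 and 54.4 CPM in wild-type libraries before transfer. Colon and earlier cells differ in tissue, in the 4 weeks between them and in the reporter gate, which cannot be told apart.

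Before transfer, where the genotypes were compared in a test the members were not chosen by, 0 of the 10 passed with edgeR. Gzmk and Klrg1, with at most 1 count in any of these libraries, could not pass. Over all 14225 genes 1 passed (0.00703%, higher) and 345 had an unadjusted p under 0.05. A fit with same-numbered libraries of a stage as a block passed 0 members, where 0.0211% of genes passed higher and 0.0141% lower. Prf1, Fasl and Klrb1c lay wholly lower in Il6ra-/-, 3 of the 10, where 8.06% of all genes did so, 0 members lay wholly higher, where 8.29% did, and 7 overlapped. Klrb1c came closest, at 0.350 and 0.769 CPM in Il6ra-/- and 1.69 and 3.57 CPM in wild type. Its log2 fold change was -2.23 ± 0.50 with an adjusted p of 0.637 with edgeR, which DESeq2 gave as 0.0131. With 1 library left out it lay between -2.88 and -1.60. Nkg7 was at -0.97 ± 0.44 with an adjusted p of 0.982 with edgeR in the full fit. Leaving out wild-type library 0, so that 1 wild-type library remained, put Nkg7 at -1.57. Leaving out wild-type library 1 instead put Nkg7 at 0.12. That library held the highest Nkg7 and Gzmb of the 4, and also the most CD8 T cell marker RNA, with Cd8a and Cd8b1 summing to 80.5 CPM, against 20.4 and 31.9 CPM in Il6ra-/- libraries and 30.4 CPM in wild-type library 0. The part of CD8 T cells in these values was not tested.

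None of the others passed before transfer. Gzmb had a log2 fold change of -0.67 ± 0.39, Klre1 of -0.44 ± 0.75 and Gzma of -0.21 ± 0.98, with adjusted p-values of 0.982, 0.988 and 1.0 with edgeR, and Gzmk and Klrg1 had at most 1 count. Prf1 had a log2 fold change of -0.69 ± 0.38, Fasl of -0.61 ± 0.36 and Klrd1 of -0.27 ± 0.28, each with an adjusted p of 0.982 with edgeR. All 3 were lower in Il6ra-/- in both pairs of libraries, whereas in the colon, the comparison that chose the members, all 3 were higher in each of 3 pairs. The share of all genes with this pattern is not given here, so nothing is read from it.

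Markers of other cells were read beside these values. Cd4 was at 1742 to 1840 CPM in Il6ra-/- and 1719 to 1962 CPM in wild-type colon libraries, and all 6 CD4 T cell markers listed were detected in each of them. The 2 CD8 markers summed to 27.8, 68.6 and 75.9 CPM in Il6ra-/- libraries 0, 1 and 2. In wild type they summed to between 13.7 and 22.1 CPM, so that the groups did not overlap. Of 7 gamma-delta T cell markers listed, the 4 analysed here summed to between 293 and 380 CPM in Il6ra-/- and between 195 and 290.4 CPM in wild type. These groups did not overlap either, by a few CPM. Most of the sum came from constant genes of the gamma chain, whose near-identical copies make single values uncertain. The 9 NK markers summed to between 32.4 and 43.5 CPM in Il6ra-/- and between 31.5 and 81.2 CPM in wild type, with Eomes, which T cells also express, as the largest. Ncr1, another marker of that list, was at 0.347, 0.247 and 0.137 CPM in Il6ra-/- and 0.211, 0.0445 and 0.138 CPM in wild type. Fcer1g and Tyrobp, of the same list, reached 10.8 and 10.5 CPM in Il6ra-/- and 10.4 and 9.88 CPM in wild type. The 8 mast cell markers summed to at most 1.62 CPM in Il6ra-/- and 1.52 CPM in wild type. The 6 myeloid markers summed to between 89.5 and 294 CPM in Il6ra-/- and between 120 and 308 CPM in wild type. The 3 neutrophil markers summed to between 9.71 and 104 CPM in Il6ra-/- and between 16.1 and 108 CPM in wild type. Before transfer, myeloid sums were at most 58.2 CPM in Il6ra-/- and 34.9 CPM in wild type. Neutrophil sums there were at most 0.738 and 0.423 CPM. The 7 epithelial markers summed to between 94.7 and 226 CPM in Il6ra-/- and between 123 and 465 CPM in wild type. The 5 Th17 markers went the other way, with sums between 40.5 and 142 CPM in Il6ra-/- and between 307 and 591 CPM in wild type. Before transfer, gamma-delta sums were at most 16.4 CPM in Il6ra-/- and 10.1 CPM in wild type, and NK sums at most 4.23 and 3.99 CPM. Epithelial sums there were at most 2.95 and 4.81 CPM, while CD8 sums lay between 20.4 and 80.5 CPM. The part of CD8 and gamma-delta T cell RNA, and of RNA from the other cells listed, in the colon values was not tested. Nor was their part in the contrast with the cells before transfer. Il6ra itself was at 4.85, 3.46 and 2.53 CPM in Il6ra-/- and 10.7, 4.32 and 5.40 CPM in wild-type colon libraries, and before transfer at 80.6 and 123 CPM in Il6ra-/- and 84.2 and 72.8 CPM in wild type. Its counts therefore do not check the genotype labels.

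In the culture part no member passed the test between genotypes, either in hyper-IL-6 or in naive cells. Between Il6ra-/- and wild-type cells in hyper-IL-6, 0 of 9 members tested passed with edgeR, where 0% of 14926 genes passed and 351 had an unadjusted p under 0.05. DESeq2 called 3 genes in all and 0 members. Gzmk was not tested, since it had at most 5 counts in any culture-part library. Klrg1 had 0 counts in every cultured library and Klrb1c at most 1 count in any of them, so neither could pass between cultures. Nkg7 was at 5.12 and 5.86 CPM in Il6ra-/- and 3.48 and 4.64 CPM in wild type (log2 fold change 0.44 ± 0.44, adjusted p = 1.0 with edgeR). In naive cells 0 of 9 members passed between genotypes, where 0.0067% of genes did, 1554 had an unadjusted p under 0.05 and DESeq2 called 0 members. Between wild-type cells in hyper-IL-6 and in IL-6, 0 of 9 members passed, where 0% of genes did, 226 had an unadjusted p under 0.05 and DESeq2 called 5 genes and 0 members. Gzmb was at 4.26 and 8.56 CPM with hyper-IL-6 and 4.00 and 0.682 CPM with IL-6 (1.42 ± 0.75, adjusted p = 1.0 with edgeR). When genes of low counts were kept in the fit, which passed more genes in all, its adjusted p was 0.00526 with edgeR. With 1 library left out, its log2 fold change lay between 0.68 and 3.22, the lowest without the IL-6 library at 0.682 CPM.

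**Figure D4:**
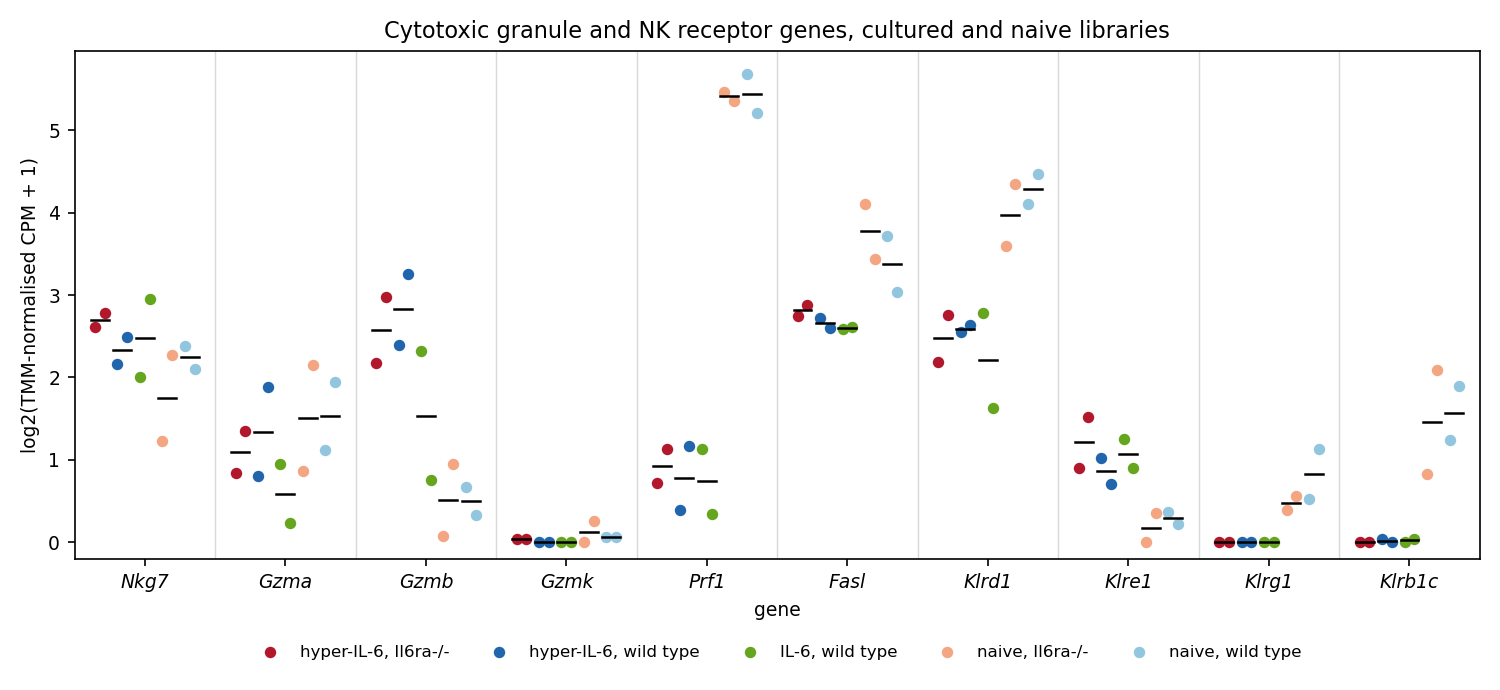
Level of each member as log2(TMM-normalised CPM + 1) in the 10 libraries of the culture part, with 1 point per library and a bar at the group mean of these log2 values. Prf1 stands between 36.0 and 50.3 CPM in the 4 naive libraries and at no more than 1.24 CPM in the 6 cultured ones.

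Cultured cells differed from naive cells in most members. In Il6ra-/- cells with hyper-IL-6, 2 members were higher than in naive cells and 5 lower by test, where 37.5% and 34.4% of all genes were. In wild-type cells 1 was higher and 5 lower, where 36.8% and 33.5% of all genes were. In all, 7 of 9 members passed in Il6ra-/- cells and 6 of 9 in wild-type cells, beside 72% and 70.3% of all genes, so the counts are near the background. The difference between genotypes in the step from naive to cultured cells was tested as an interaction. It passed for 0 of 9 members and 0 of 14926 genes with edgeR, with a smallest member adjusted p of 0.656. Klrg1, with 0 counts in every cultured library, could not pass this test.

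Prf1 had its highest levels of the series in naive cells. It was at 43.1 and 40.1 CPM in Il6ra-/- and 50.3 and 36.0 CPM in wild-type naive libraries. After culture with hyper-IL-6 it was at 0.643 and 1.2 CPM in Il6ra-/- and 0.310 and 1.24 CPM in wild type. It fell by 5.49 ± 0.52 on the log2 scale in Il6ra-/- cells (adjusted p = 3.11e-06) and by 5.82 ± 0.53 in wild-type cells (adjusted p = 2.35e-06, both with edgeR). The naive libraries were scaled apart from the transfer part. They had PMA and ionomycin per the labels, which give none for the colon libraries. Their Prf1 level was above that of the colon, where the means were 18.9 ± 3.22 CPM in Il6ra-/- and 9.83 ± 1.35 CPM in wild type (SD, n = 3 each). Naive libraries thus held abundant Prf1 RNA with Gzmb at 0.939 CPM or less.

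Gzmb went the other way. Cultured cells had 3.52 and 6.84 CPM in Il6ra-/- and 4.26 and 8.56 CPM in wild type, against 0.0517 and 0.939 CPM in Il6ra-/- and 0.586 and 0.254 CPM in wild-type naive cells. It rose by 3.27 ± 0.92 log2 units in Il6ra-/- (adjusted p = 0.00841) and by 3.95 ± 0.97 in wild type (adjusted p = 0.00376, both with edgeR). Without the Il6ra-/- naive library 1, which had 1 count, the adjusted p in Il6ra-/- was 0.0514. Gzma did not pass in either genotype, at -0.89 ± 0.84 with an adjusted p of 0.360 in Il6ra-/- and -0.24 ± 0.83 with an adjusted p of 0.805 in wild type with edgeR.

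Fasl and Klrd1 were lower after culture in both genotypes. Fasl fell by 1.1 ± 0.28 log2 units in Il6ra-/- (adjusted p = 0.00451) and by 0.85 ± 0.28 in wild type (adjusted p = 0.0195, both with edgeR), and it no longer passed in wild type without either cultured library or without naive library 1, where the adjusted p was 0.0589, 0.0987 and 0.229. In Il6ra-/- it no longer passed without naive library 1, at 0.0641. Klrd1 fell by 1.71 ± 0.42 log2 units in Il6ra-/- (adjusted p = 0.00386) and by 1.89 ± 0.42 in wild type (adjusted p = 0.00204, both with edgeR). Its naive levels were 11.1 and 19.3 CPM in Il6ra-/- and 16.2 and 21.2 CPM in wild type. These were near the Klrd1 levels of wild-type colon cells, which were scaled apart. The labels give PMA and ionomycin for the naive libraries and none for the colon ones.

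Klrg1 and Klrb1c were all but absent from cultured cells. Klrg1 had 0 counts in all 6 cultured libraries and between 6 and 28 counts in the 4 naive ones, which made cultured cells at least 4.71-fold lower in Il6ra-/- (adjusted p = 0.00511) and at least 10.8-fold lower in wild type (adjusted p = 0.00145, both with edgeR). Klrb1c had 0 counts in both cultured Il6ra-/- libraries and 1 and 0 counts in the wild-type ones with hyper-IL-6. In naive cells it was at 0.775 and 3.25 CPM in Il6ra-/- and 1.37 and 2.71 CPM in wild type. The cultured level was at least 24.3-fold lower in Il6ra-/- (adjusted p = 0.000328), and the change passed in wild type too (adjusted p = 0.000441, both with edgeR). Klre1 moved in the opposite direction, with 31 and 69 counts in cultured against 0 and 7 counts in naive Il6ra-/- cells (3.16 ± 0.84 log2 units, adjusted p = 0.00602 with edgeR). In wild type Klre1 stood at 1.84 ± 0.81 log2 units with an adjusted p of 0.0622. Nkg7, at 1.05 ± 0.46 log2 units in Il6ra-/- cells, had an adjusted p of 0.0619 with edgeR, 0.0402 with DESeq2 and 0.0280 with the replicate number as a block.

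Genes that work beside the members were grouped in 5 lists, chosen with earlier results of these data known. The calls and medians of these lists in the colon are therefore not independent evidence of a direction. Between genotypes in the colon, 0.0633% of all genes passed higher and 0.0914% lower. Of 15 granule genes tested, 0 passed, and the median log2 fold change was -0.08 against 0.00 over all genes. Srgn, the proteoglycan that packs granule contents, was at 686, 757 and 817 CPM in Il6ra-/- and 652, 772 and 973 CPM in wild type (-0.08 ± 0.21). Ctsw, a cathepsin of cytotoxic cells, was at 568, 610 and 752 CPM in Il6ra-/- and 339, 428 and 284 CPM in wild type (0.88 ± 0.22, adjusted p = 0.312 with edgeR). Rab27a and Unc13d, which dock and prime granules, had log2 fold changes of -0.15 ± 0.17 and 0.28 ± 0.22. Gzmc, the other gene of the Gzmb cluster that could be tested, was at 3.24, 3.87 and 4.65 CPM in Il6ra-/- and 10.1, 8.63 and 9.34 CPM in wild type, the reverse of Gzmb, and did not pass (-1.26 ± 0.48, adjusted p = 0.861 with edgeR). Gzmc was named after its values were seen, and counts of the near-identical granzyme genes of that cluster are uncertain.

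Of 17 other NK receptor and adaptor genes tested, 0 passed between genotypes in the colon, and the median log2 fold change was 0.48. With the replicate number within stage as a block, where 0.274% of all genes passed higher, 1 of the 17 did. This was Klrk1, the gene of NKG2D, at 73.6, 29.6 and 44.6 CPM in Il6ra-/- and 20.0, 10.9 and 15.5 CPM in wild type (1.62 ± 0.27, adjusted p = 0.0432 with edgeR). Cd226, Cd160, Klrb1f and Hcst, the 4 most abundant of the list in the colon, had log2 fold changes of 0.50 ± 0.26, 0.13 ± 0.40, 0.48 ± 0.19 and 0.84 ± 0.47. Klrc1, the partner of Klrd1 in the CD94/NKG2A receptor, was named after its values were seen. It was at 43.5, 52.9 and 60.2 CPM in Il6ra-/- and 17.4, 28.9 and 25.3 CPM in wild type (1.13 ± 0.31, adjusted p = 0.386 with edgeR), and its counts are uncertain because the Klrc genes are alike. Against the cells before transfer, 14 of the 17 passed higher and 0 lower in Il6ra-/- cells, and 11 passed higher and 0 lower in wild-type cells, where 13.8% and 17.1% of all genes passed higher.

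**Figure D5:**
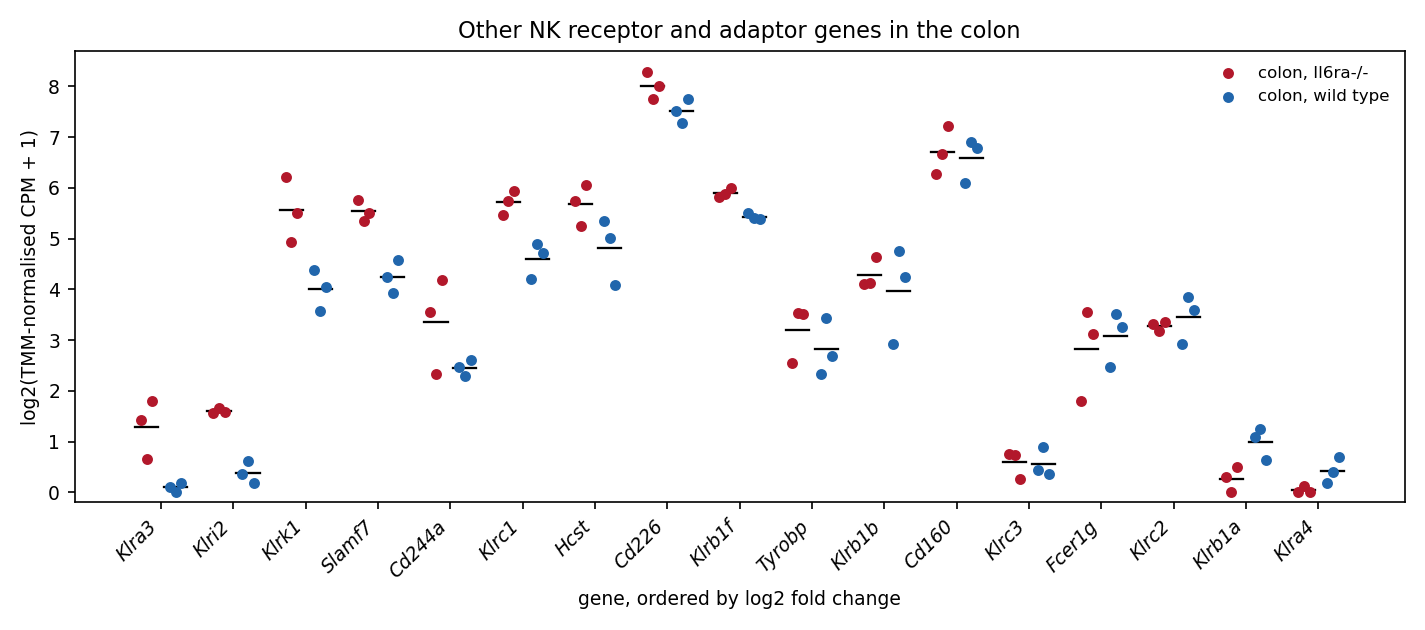
Level of the 17 other NK receptor and adaptor genes tested, as log2(TMM-normalised CPM + 1), in 3 Il6ra-/- and 3 wild-type colon libraries, with 1 point per library and a bar at the group mean of these log2 values. Genes run from the highest to the lowest log2 fold change, and 0 of the 17 passed the test between genotypes.

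Of 10 genes of the Fas and related death pathways, 0 passed between genotypes in the colon, with a median log2 fold change of 0.14. Tnfsf10, the gene of the death ligand TRAIL, was at 309.97, 268 and 281 CPM in Il6ra-/- and 178, 199 and 232 CPM in wild type (0.50 ± 0.28, adjusted p = 1.0 with edgeR). Cflar, Casp8 and Tnf had log2 fold changes of -0.07 ± 0.20, 0.15 ± 0.18 and -0.10 ± 0.18. Against the cells before transfer, 2 of the 10 passed higher and 2 lower in Il6ra-/-, and 3 passed higher and 4 lower in wild type. Over all genes, 13.8% passed higher and 13.2% lower in Il6ra-/-, and 17.1% and 15.8% did in wild type. Those higher were Tnfsf10 and Tnf in both genotypes and Cflar in wild type, and those lower were Lta and Tnfrsf10b in both genotypes and Fas and Fadd in wild type. Tnfsf10 rose by 3.54 ± 0.37 log2 units in Il6ra-/- (adjusted p = 8.23e-05) and by 2.91 ± 0.36 in wild type (adjusted p = 0.000231, both with edgeR). Fas, the receptor of Fas ligand, fell by 1.03 ± 0.30 log2 units in wild type (adjusted p = 0.0235 with edgeR). Without wild-type colon library 2, 3 of the 10 passed higher and 1 lower in wild type. Fas, Fadd and Tnfrsf10b then had adjusted p-values of 0.0531, 0.0801 and 0.0523 with edgeR and no longer passed.

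Of 20 regulators of cytotoxic and NK cell genes, 1 passed between genotypes in the colon. Il12rb2, a chain of the IL-12 receptor, was at 224, 233 and 189 CPM in Il6ra-/- and 25.9, 31.6 and 38.9 CPM in wild type (2.74 ± 0.39, adjusted p = 0.0236 with edgeR). Tbx21 and Eomes, which encode T-box transcription factors, were named after their values were seen and did not pass. Tbx21 was at 177, 139 and 138 CPM in Il6ra-/- and 90.2, 88.3 and 77.4 CPM in wild type (0.83 ± 0.43, adjusted p = 1.0 with edgeR). Eomes was at 24.3, 21.5 and 16.4 CPM in Il6ra-/- and 20.7, 37.5 and 65.9 CPM in wild type (-0.996 ± 0.36, adjusted p = 0.807 with edgeR). With the block within stage Hopx passed as well (1.21 ± 0.16, adjusted p = 0.0166 with edgeR). Il18r1, Bhlhe40, Il18rap and Id2, the most abundant of the list, had log2 fold changes of 0.26 ± 0.35, -0.02 ± 0.38, 0.69 ± 0.28 and 0.32 ± 0.18. Relative to the cells before transfer, 13 regulators passed higher and 1 lower in Il6ra-/- and 11 higher and 1 lower in wild type, where 13.8% of all genes passed higher and 13.2% lower in Il6ra-/- and 17.1% and 15.8% did in wild type. The gene that passed lower was Bcl6 in both genotypes.

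Of 10 genes often expressed with the members in effector cells, 1 passed between genotypes in the colon, and the median log2 fold change was 1.05. Itga1, the alpha chain of a collagen-binding integrin of tissue-resident cells, was at 181, 127 and 157 CPM in Il6ra-/- and 43.6, 49.8 and 57.8 CPM in wild type (1.62 ± 0.19, adjusted p = 0.0164 with edgeR). Ifng was at 293, 418 and 422 CPM in Il6ra-/- and 157, 271 and 256 CPM in wild type (0.73 ± 0.33, adjusted p = 1.0 with edgeR). Ccl5, a chemokine stored with granules, was at 533, 355 and 632 CPM in Il6ra-/- and 202, 228 and 166 CPM in wild type (1.35 ± 0.58, adjusted p = 1.0 with edgeR). Cxcr6 and Cxcr3, chemokine receptors of effector cells, had log2 fold changes of 0.55 ± 0.21 and 0.17 ± 0.32. Without wild-type colon library 2, 0 genes passed in any of the 5 lists, and Il12rb2 and Itga1 had adjusted p-values of 0.149 and 0.0591 with edgeR. Without wild-type colon library 1, 0 genes of the whole table passed.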

How the data were processed

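RNA of CD4 T cells was sequenced in 20 libraries, and the authors deposited 1 table of unnormalised gene counts for each. The submitters' processing notes name the aligner STAR 2.5.3, the counter HTSeq 0.7.2, and SAMtools 0.1.18, with DESeq2 1.18.1 run in R 3.4.3, and mouse build GRCm38 (mm10). How strand was treated and which annotation was used are not given in the sources used here, and overlapping and antisense genes and near-identical copies are uncertain. The transfer part used a stranded mRNA kit per the labels' protocols.

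Of each table, the 39179 gene IDs were used and the 5 lines of HTSeq totals set aside. Between 18.1% and 31.9% of unique reads lay outside genes. GENCODE M21 named 37693 IDs. The transfer and culture parts were fitted separately with edgeR 4.0.16 in R 4.3.3 (quasi-likelihood F test, TMM scaling, filter by expression, group as the factor) on 14225 and 14926 genes. The common dispersion, as a coefficient of variation, was 0.309 and 0.124. Levels per kilobase used the union of exons. The fits were tested on simulated counts.

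Members and lists were chosen with earlier results of these data known. All members are named, and of each list the genes that passed and the 4 with the highest mean colon CPM. Alternatives were RLE size factors, no filter, DESeq2 1.42.0, a block on the replicate number, a term for the experiment in the colon and each library left out. In the labels, number 0 is experiment 1, while numbers 1 and 2 are experiment 2. Deviations of same-numbered libraries from their group means correlated at 0.58, 0.237 and 0.183 in the colon and at 0.43 before transfer, and the numbers were taken to pair libraries within a stage. For colon libraries 1 and 2, which share an experiment, this pairing is assumed. The block within stage and the list counts without wild-type colon library 2 were added after seeing the data. In no group did replicates agree within sampling noise.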

Additional observations from a re-analysis of the deposited data

Results flagged for a closer look

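For Prf1, Fasl and Klrd1 the genotypes stood in opposite order in the colon and before transfer in every pair of same-numbered libraries. The share of all genes with this pattern is not given here. Klrd1 overlapped between the genotypes before transfer, so its order there rests on the pairs. Its log2 fold change before transfer was smaller than its SE, and lay between -0.57 and 0.0073 with 1 library left out. The mean log2 ratio of Il6ra-/- over wild type was 0.94 in the colon and -0.77 before transfer for Prf1, 0.77 and -0.57 for Fasl, and 1.73 and -0.28 for Klrd1 (3 pairs in the colon, 2 before transfer). The difference between the stages was not tested, and the colon values are among those that chose the members.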

How the results depend on the processing

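Between genotypes in the colon, 22 genes passed, against 120 without the filter, 133 with DESeq2, 42 with an experiment term, 39 with the replicate block shared across stages and 94 with the replicate block within stage (20 of the 22 among them), and between 0 and 8 with 1 library left out (0 without wild-type library 1 or 2, 2 without any one Il6ra-/- library). Before transfer 1 gene passed, against 17 without the filter, 26 with DESeq2, 5 with the replicate block within stage and between 0 and 1152 with 1 library left out (1152 without wild-type library 0). Between genotypes in hyper-IL-6 culture 0 passed, against 74 without the filter, 3 with DESeq2 and up to 1 with 1 library left out. In naive cells 1 passed, against 439 without the filter, 95 with DESeq2, 0 with the replicate block and between 0 and 902 with 1 library left out (902 without wild-type library 2). Between hyper-IL-6 and IL-6 0 passed, against 36 without the filter and 5 with DESeq2. The cause of these shifts was not tested. RLE size factors left each of these counts within 1.5 times, and the counts of colon against earlier cells and of cultured against naive cells stayed within 1.5 times under every alternative run. The replicate numbers of the culture part, with correlations between -0.0725 and 0.156, pair nothing by design. Where 1 library of a group remained, it was assumed to vary like the others. With 1 library left out, the log2 fold change of Nkg7 before transfer lay between -1.57 (without wild-type library 0) and 0.12 (without wild-type library 1), that of Nkg7 in naive cells between -1.46 (without Il6ra-/- library 2) and 0.033 (without Il6ra-/- library 1), and that of Gzma in cultured against naive Il6ra-/- cells between -1.54 (without naive library 1) and 0.50 (without naive library 2). Their signs turned in fits that passed no test. A value smaller than its SE was given no direction to turn. With 2 or 3 libraries a group and few counts of Klre1, Klrg1 and Gzmk, small differences were not detectable at this depth.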
